A study of Homo sapiens with 4 samples.

Results

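To ask how depletion of PTBP1 differs from depletion of a DNMT3B transcript, the RNA of DU145 cells given either of 2 PTBP1 siRNAs was compared with that of DU145 cells given DNMT3B-L siRNA. DU145 is an established human prostate cancer cell line, and all groups were wild type apart from the siRNA. Cells were given control siRNA, DNMT3B-L siRNA, or either of the siRNAs against PTBP1, which the labels number 1 and 2 and which are called PTBP1 siRNA replicate 1 and replicate 2 here. Each of these 4 treatments had 1 library. Every siRNA was given at 75 nM, and the series describes transfection for 48 h. The ratios and the test rested on 3 of the 4 libraries. The control library entered the filter on genes alone and is shown beside the results as a level. Of 23585 genes listed in any table, 11075 stood in all 4 tables with an average CPM of at least 5, CPM being the depth-scaled count of read pairs that the tables hold, and these were the genes compared. For each gene, the log2 ratio of CPM + 1 was taken from each PTBP1 siRNA library to the DNMT3B-L siRNA library. This scale understates the change of genes with low values. At least 2-fold in the same direction with both PTBP1 siRNAs, 91 genes (0.822%) were found, 58 of them higher and 33 lower. This fold rule is not a test. In simulated libraries genes with no difference passed it too, at a sizeable part of the 91. Those libraries gave all genes the same spread, estimated with the PTBP1 siRNAs as replicates, so how many passed depends on that setting. A place among the 91 does not by itself show a change.

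PTBP1 is an RNA-binding protein that binds pyrimidine-rich stretches of precursor RNA and mostly represses the exons beside them. PTBP2 is its neuronal paralog. PTBP1 makes cells skip an exon of the PTBP2 transcript, and the skipped form is degraded, so PTBP2 is a well-known readout of PTBP1 loss. DNMT3B is a de novo DNA methyltransferase with many splice forms, and the series is about the control of its splicing by PTBP1. The labels do not define DNMT3B-L further, and values per gene cannot tell splice forms apart. An siRNA cuts the transcript it was designed for, and its guide strand can also lower other transcripts whose 3′ untranslated region (3′ UTR) matches the guide's seed, bases 2 to 8.

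Depth was even, with 22332245 to 24088975 read pairs per library. Mitochondrially encoded genes took 8.47% to 9.83% of CPM. In such bulk libraries, fewer cells of a kind and less RNA per cell cannot be told apart. The keratins KRT8, KRT18, KRT19 and KRT7, which mark epithelial cells, were between 108 and 1444 CPM in every library, whereas CDH1 reached at most 20.0 and EPCAM at most 11.6. No endothelial, immune or neuroendocrine marker reached an average of 5 CPM, and of 4 fibroblast markers COL1A1 did, at 16.1 to 27.0 CPM.

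First, the targeted genes were examined. PTBP1 stood at 268 CPM (95% exact Poisson interval 261 to 274) with PTBP1 siRNA replicate 1 and at 135 CPM (130 to 140) with replicate 2, against 982 CPM (969 to 995) with DNMT3B-L siRNA and 928 CPM (915 to 940) with control siRNA. Both PTBP1 libraries were far below the other pair, and replicate 2 was the lower of them. These intervals cover counting error only. PTBP1 was left at 27.3% and 13.7% of the DNMT3B-L siRNA level, a log2 fold change of -2.36 ± 0.38 (SE), but its limma adjusted p was 0.402. DNMT3B stood at 5.46 CPM (4.54 to 6.52) with DNMT3B-L siRNA, at 8.43 (7.31 to 9.67) and 13.1 (11.6 to 14.6) with PTBP1 siRNA, and at 9.77 (8.52 to 11.2) with control siRNA. The DNMT3B-L siRNA library was therefore the lowest of the 4, at 55.9% of the control level, in the direction its label gives. Against it, DNMT3B was higher with both PTBP1 siRNAs by 0.83 ± 0.38 on the log2 scale, which did not pass the test (limma adjusted p = 0.979).

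PTBP2 passed the test and rose with both PTBP1 siRNAs. Its level was 60.9 CPM (57.8 to 64.1) and 70.9 CPM (67.5 to 74.4) with PTBP1 siRNA, 6.45 CPM (5.44 to 7.59) with DNMT3B-L siRNA and 8.26 CPM (7.12 to 9.54) with control siRNA. The PTBP1 libraries were 9.44 and 11.0 times the DNMT3B-L siRNA library, and the control library lay beside the latter. The log2 fold change was 3.16 ± 0.32 with a limma adjusted p of 0.00919, and PTBP2 was 1 of 1 gene past the threshold, 0.00903% of the 11075 tested. At an unadjusted p under 0.05, limma held 569 genes (5.14%). The call on PTBP2 was lost without a filter on low values (adjusted p = 0.938) and after quantile normalization (adjusted p = 0.666). edgeR called PTBP2 alone as well (adjusted p = 0.0248), and DESeq2 called 19 genes (0.172%), 17 higher and 2 lower. The lone DNMT3B-L siRNA library is assumed in these fits to vary like the PTBP1 libraries, and an exact permutation test of 2 libraries against 1 cannot go below p = 0.333. DESeq2 gave no adjusted p to 3006 of the 11075 genes, so these could not be called. Nothing in the labels says that the libraries came from separate cultures. The 1 residual degree of freedom of limma is the difference between 2 different siRNAs against PTBP1, and most of its variance estimate is drawn from all genes. Its p-values therefore do not measure a spread between replicates of a condition.

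Of the 11075 genes, 58 (0.524%) were at least 2-fold higher and 33 (0.298%) at least 2-fold lower with both PTBP1 siRNAs than with DNMT3B-L siRNA. Replicate 1 alone gave 234 higher and 247 lower genes, and replicate 2 alone 136 and 223. No gene was 2-fold higher with one PTBP1 siRNA and 2-fold lower with the other. Both ratios share the DNMT3B-L siRNA library, whose error moves them the same way, so this does not measure agreement of the siRNAs. Without a fold limit, 3310 genes (29.9%) were higher with both and 4150 (37.5%) were lower with both. The higher genes had a median level of 28.0 CPM and the lower genes of 17.3 CPM, against 37.9 CPM over all genes compared. The 2 PTBP1 ratios of a gene differed by a median of 0.23 log2 units among the higher genes, 0.21 among the lower and 0.26 over all genes. The members were chosen for passing the limit with both siRNAs, so these medians are a description. At the limit, SOX12 and RIMBP3 were just inside (smaller ratio 1.01 for both) and LOXL2 just outside (0.99), whereas SBK1 was just inside on the lower side (-1.01) and MDFI just outside (-0.99).

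**Figure D1:**
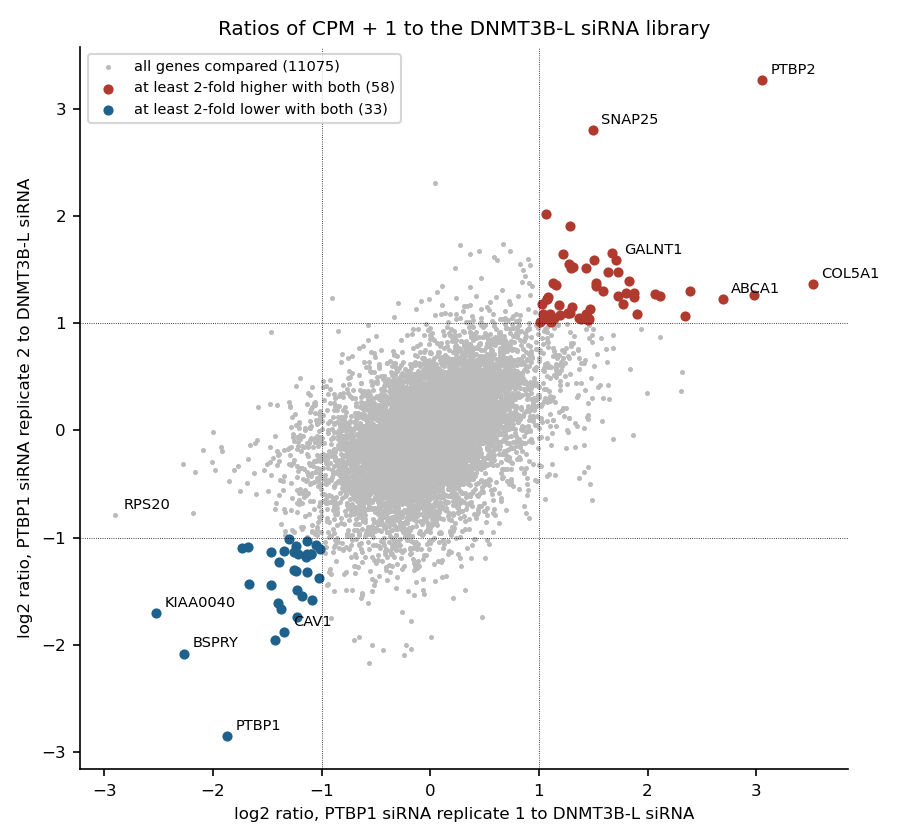
Log2 ratio of CPM + 1 to the DNMT3B-L siRNA library for PTBP1 siRNA replicate 1 (horizontal) and replicate 2 (vertical), 1 point per gene, with dotted lines at 2-fold. PTBP2 stands apart at the upper right (3.05 and 3.27) and PTBP1 at the lower left (-1.87 and -2.85). COL5A1 (3.52 and 1.36) and RPS20 lie farther out along the axis of replicate 1 than along that of replicate 2.

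Both ratios share the DNMT3B-L siRNA library, so a gene that is low in that library alone also enters the higher group. The control library, which entered the filter on average CPM but neither ratio, was therefore set beside each gene. Among the 58 higher genes, control siRNA lay nearer to the PTBP1 libraries in 49 and nearer to the DNMT3B-L siRNA library in 9, on the log2 scale and measured to the nearer PTBP1 library. In 34 of the 58 the control library was itself at least 2-fold above the DNMT3B-L siRNA library. Among the 33 lower genes the places were more mixed, with control nearer to the PTBP1 libraries in 14 and nearer to the DNMT3B-L siRNA library in 19. Nearer here does not mean level, and at some genes control siRNA lay close to midway. These places are described with no test, since each rests on 1 control library. They were not counted over all genes, and the members were chosen by ratios to the shared DNMT3B-L siRNA library. The counts therefore show nothing particular to these members.

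**Figure D2:**
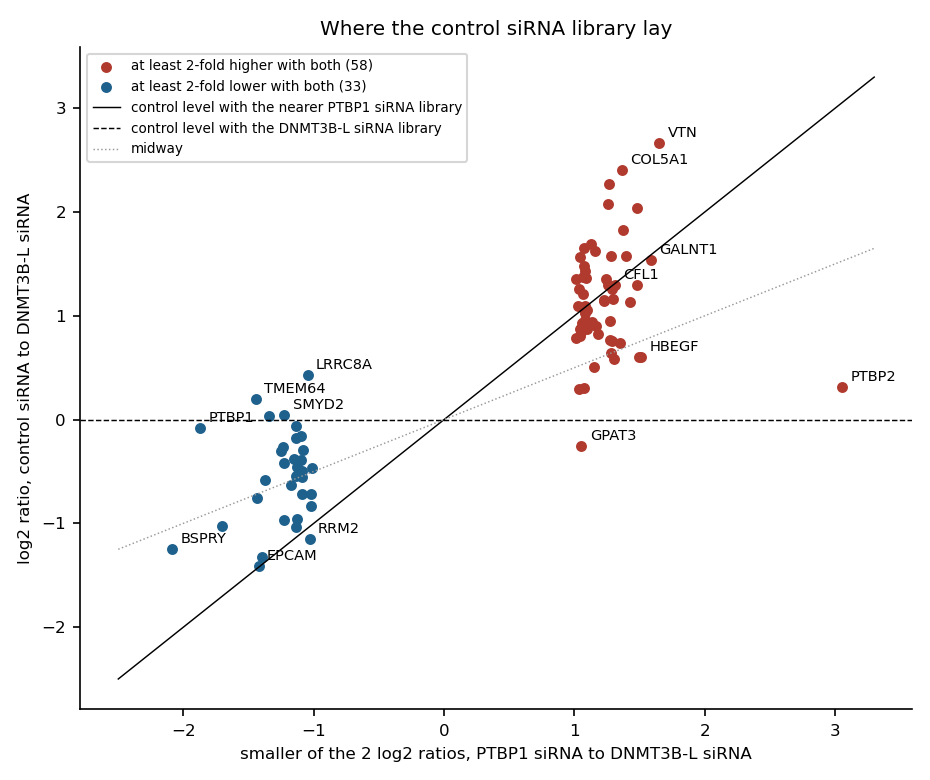
The 58 higher and 33 lower genes by the smaller of their 2 PTBP1 ratios (horizontal) and by the log2 ratio of control siRNA to DNMT3B-L siRNA (vertical). Points near the dashed line have control siRNA level with DNMT3B-L siRNA, as PTBP2, PTBP1, SMYD2 and TMEM64 do, and points near the solid line have it level with the nearer PTBP1 library, as GALNT1, CFL1 and EPCAM do.

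The 9 higher genes in which control siRNA lay nearer to DNMT3B-L siRNA began with PTBP2. HBEGF, a membrane-anchored ligand of the EGF receptor, stood at 112 and 119 CPM with PTBP1 siRNA, 38.8 CPM with DNMT3B-L siRNA and 59.4 CPM with control siRNA. Its log2 fold change against DNMT3B-L siRNA was 1.55 ± 0.30 (limma adjusted p = 0.513, DESeq2 adjusted p = 0.0284). SNAP25, a SNARE protein of synaptic vesicle fusion, stood at 5.98 CPM with replicate 1 and 16.3 CPM with replicate 2, against 1.48 CPM with DNMT3B-L siRNA and 2.75 CPM with control siRNA. The PTBP1 siRNAs thus differed from each other at SNAP25, and both libraries were above the other pair, as the grouping of these genes requires. GPAT3, an acyltransferase of glycerolipid synthesis, stood at 155 and 124 CPM with PTBP1 siRNA, 59.2 CPM with DNMT3B-L siRNA and 49.4 CPM with control siRNA. It was the 1 gene of the 58 with control siRNA on the far side of DNMT3B-L siRNA. ANGPTL4, a secreted inhibitor of lipoprotein lipase, stood at 16.0 and 6.99 CPM against 2.24 CPM with DNMT3B-L siRNA and 3.86 CPM with control siRNA. IGF2BP1, an mRNA-binding protein, stood at 50.5 and 37.4 CPM against 17.8 and 22.1 CPM in that order. The others were PPP1R3F, PTGR1 and AC004381.6 (now REXO5).

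In the 49 other higher genes control siRNA lay nearer to the PTBP1 libraries, in places from above both of them to between them and DNMT3B-L siRNA. GALNT1, an enzyme that starts O-linked glycosylation, stood at 122 and 112 CPM with PTBP1 siRNA and 108 CPM with control siRNA, against 36.8 CPM with DNMT3B-L siRNA. The 3 libraries without DNMT3B-L siRNA were close to each other, and the PTBP1 libraries were 3.33 and 3.06 times the fourth. CFL1, or cofilin, which severs actin filaments, had the same shape at a higher level, with 785 and 912 CPM with PTBP1 siRNA, 776 CPM with control siRNA and 316 CPM with DNMT3B-L siRNA. ABCC3, an efflux transporter of organic anions, stood at 162 and 137 CPM with PTBP1 siRNA, 120 CPM with control siRNA and 48.4 CPM with DNMT3B-L siRNA. Here too the DNMT3B-L siRNA library was well below the rest. LMAN2, a cargo lectin of the secretory pathway, stood at 224 and 222 CPM, 203 CPM and 106 CPM in that order. MYBL2, a transcription factor of cell cycle genes, stood at 295 and 241 CPM with PTBP1 siRNA and 219 CPM with control siRNA, against 97.3 CPM with DNMT3B-L siRNA.

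In 10 of these 49 genes control siRNA was above both PTBP1 libraries. VTN, the adhesive glycoprotein vitronectin, stood at 7.31 and 7.21 CPM with PTBP1 siRNA, 1.61 CPM with DNMT3B-L siRNA and 15.5 CPM with control siRNA. LRRN2 stood at 32.2 and 28.8 CPM with PTBP1 siRNA, 9.72 CPM with DNMT3B-L siRNA and 43.1 CPM with control siRNA. At both genes the PTBP1 libraries lay between the other pair. IFIT2, an interferon-induced protein, showed the same order, with 76.8 and 87.9 CPM with PTBP1 siRNA, 33.8 CPM with DNMT3B-L siRNA and 106 CPM with control siRNA. RAB7B, a small GTPase of endosomes, did so too, at 7.68 and 6.82 CPM with PTBP1 siRNA, 2.02 CPM with DNMT3B-L siRNA and 9.73 CPM with control siRNA.

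At several of the higher genes the PTBP1 siRNAs differed from each other. COL5A1, a chain of fibrillar collagen, stood at 216 CPM with replicate 1 and 47.6 CPM with replicate 2, 17.9 CPM with DNMT3B-L siRNA and 99.2 CPM with control siRNA. The control library fell between the PTBP1 libraries, and the log2 fold change of 2.44 ± 0.64 had a limma adjusted p of 0.643, against 0.0100 in DESeq2. ITGA2, a collagen-binding integrin chain, stood at 118 and 78.0 CPM with PTBP1 siRNA, 31.4 CPM with DNMT3B-L siRNA and 53.9 CPM with control siRNA. NID1, a linker protein of basement membranes, stood at 129 and 82.5 CPM, 34.3 CPM and 89.5 CPM in that order. At ITGA2 both PTBP1 libraries were above control siRNA, and at NID1 replicate 2 was a little below it. MB, or myoglobin, stood at 18.9 and 5.05 CPM with PTBP1 siRNA, 1.52 CPM with DNMT3B-L siRNA and 11.2 CPM with control siRNA. ABCA1, a cholesterol efflux pump, stood at 60.2 and 21.1 CPM, 8.46 CPM and 20.1 CPM in that order. TGFB2, a ligand of the TGF-beta receptors, stood at 54.2 and 30.3 CPM with PTBP1 siRNA, 13.7 CPM with DNMT3B-L siRNA and 27.6 CPM with control siRNA. In these 6 genes, picked for the text, replicate 1 was the higher PTBP1 library. Other higher genes went the other way, such as SNAP25, CALB2 (5.23 CPM with replicate 1 and 11.0 with replicate 2) and DCAF12 (189 and 252). The other genes in the 12 highest ratios were PMP22, a myelin protein, TSPYL2 and SLC25A45, a mitochondrial carrier family member, with smaller ratios of 1.43, 1.39 and 1.35.

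**Figure D3:**
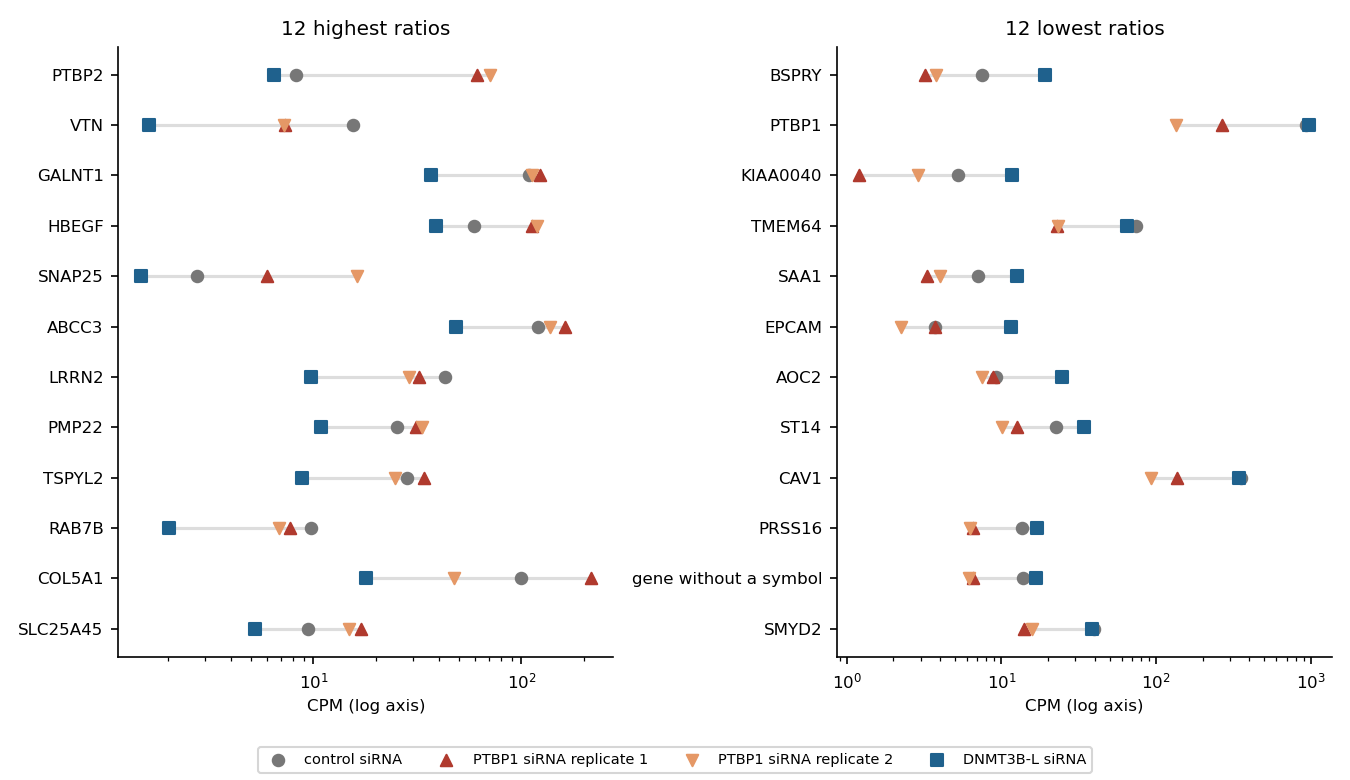
CPM (log axis) of the 12 genes with the highest and the 12 with the lowest ratios to DNMT3B-L siRNA, ordered by the smaller of the 2 PTBP1 ratios, 1 symbol per library and no error bars. The DNMT3B-L siRNA square stands alone at the left for VTN, GALNT1 and LRRN2, whereas for PTBP1, TMEM64, CAV1 and SMYD2 it lies beside the control circle at the right.

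Among the lower genes, 19 had control siRNA nearer to DNMT3B-L siRNA, among them SBK1 and DGCR11, where it was close to midway. CAV1, the coat protein of caveolae, stood at 136 and 92.9 CPM with PTBP1 siRNA, against 345 CPM with DNMT3B-L siRNA and 353 CPM with control siRNA. Its log2 fold change was -1.61 ± 0.33 (limma adjusted p = 0.513, DESeq2 adjusted p = 0.0490), and PTBP1 was the other lower gene that DESeq2 called. TMEM64, a transmembrane protein, stood at 22.8 and 23.2 CPM with PTBP1 siRNA, 64.7 CPM with DNMT3B-L siRNA and 74.4 CPM with control siRNA. SMYD2, a lysine methyltransferase, stood at 14.0 and 15.8 CPM, 38.4 CPM and 39.7 CPM in that order. At TMEM64 and SMYD2 the PTBP1 libraries were close to each other, whereas at CAV1 replicate 2 was below replicate 1. At none of these genes did the PTBP1 libraries overlap the other pair, as the grouping of these genes requires. LRRC8A, the subunit that every volume-regulated anion channel needs, stood at 50.4 and 49.5 CPM with PTBP1 siRNA, 105 CPM with DNMT3B-L siRNA and 142 CPM with control siRNA. RNF6, a ubiquitin ligase, stood at 19.3 and 19.0 CPM with PTBP1 siRNA, 43.5 CPM with DNMT3B-L siRNA and 41.6 CPM with control siRNA. UNC45A, a myosin chaperone, stood at 45.3 and 57.3 CPM, 127 CPM and 112 CPM in that order. Control siRNA was on the far side of DNMT3B-L siRNA in 4 of the 19 genes, LRRC8A, TMEM64, SMYD2 and CAV1. The remaining genes of this kind were PTBP1, PRSS16, ST14, ERLIN1, WBP11, KIAA2013, HKDC1, TRIM4, RAB32, NKD1, SBK1 and DGCR11, and 1 gene without a symbol.

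In the 14 other lower genes control siRNA was nearer to the PTBP1 libraries, and DNMT3B-L siRNA had the highest level. BSPRY, a B-box and SPRY domain protein, stood at 3.20 and 3.76 CPM with PTBP1 siRNA, 7.51 CPM with control siRNA and 19.2 CPM with DNMT3B-L siRNA. It had the lowest smaller ratio of all genes (-2.08), with a log2 fold change of -2.17 ± 0.37 and a limma adjusted p of 0.402. EPCAM, an epithelial adhesion molecule, stood at 3.69 and 2.24 CPM with PTBP1 siRNA, 3.73 CPM with control siRNA and 11.6 CPM with DNMT3B-L siRNA. AOC2, an amine oxidase, stood at 8.80 and 7.47 CPM, 9.28 CPM and 24.8 CPM in that order. At EPCAM and AOC2 the control library was near the higher of the PTBP1 libraries. RRM2, the small subunit of ribonucleotide reductase, stood at 127 and 137 CPM with PTBP1 siRNA, 126 CPM with control siRNA and 281 CPM with DNMT3B-L siRNA. SAA1, an acute phase protein, stood at 3.28 and 4.01 CPM with PTBP1 siRNA, 7.02 CPM with control siRNA and 12.6 CPM with DNMT3B-L siRNA. KIAA0040 stood at 1.20 and 2.89 CPM, 5.24 CPM and 11.7 CPM in that order. At SAA1 and KIAA0040 control siRNA lay between the PTBP1 libraries and DNMT3B-L siRNA.

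By direction alone, the list of epithelial junction and mesenchymal genes was near the background. Of its 27 genes 20 were compared, of which 8 (40.0%) were lower with both PTBP1 siRNAs, against 37.5% of all genes, and 6 were higher. Its median log2 fold change was -0.12, with -0.01 for replicate 1 and -0.28 for replicate 2, against -0.04 over all genes. At least 1.5-fold higher with both were 2 of the 20, against 318 of all 11075 genes. At least 1.5-fold lower were 4 of the 20, against 273 of all 11075, so these shares were above the background. EPCAM and ST14 were at least 2-fold lower with both, against 33 of all 11075 genes. The list was chosen with earlier results of these data known, so its counts are a description. ST14, the membrane serine protease matriptase, stood at 12.5 and 10.1 CPM with PTBP1 siRNA, 34.2 CPM with DNMT3B-L siRNA and 22.4 CPM with control siRNA. ESRP2, an epithelial splicing regulator, stood at 20.7 and 15.8 CPM, 40.1 CPM and 22.0 CPM in that order. DSP, or desmoplakin of desmosomes, stood at 77.2 and 54.2 CPM with PTBP1 siRNA, 124 CPM with DNMT3B-L siRNA and 107 CPM with control siRNA.

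The lists of known pathways were then examined, each by its count and its median beside all genes, with no test of a list. The median log2 fold change over all genes was -0.04, and 29.9% of them were higher and 37.5% lower with both PTBP1 siRNAs. In 8 of the 27 lists the medians of the PTBP1 siRNAs had different signs, and where they lie far apart both are given. The lists of PTBP1 itself had medians close to that of all genes. Of 21 PTB proteins and partners compared, 4 were higher and 6 lower with both PTBP1 siRNAs, with a median of -0.04 (0.12 for replicate 1 and -0.05 for replicate 2). MBNL2, a splicing regulator, was at 59.1 and 53.8 CPM with PTBP1 siRNA, 35.7 CPM with DNMT3B-L siRNA and 68.8 CPM with control siRNA. Of 14 genes with exons known to be controlled by PTBP1, 7 were higher and 3 lower with both (median 0.04), and PTBP2 was the one past 2-fold. Gene levels do not show whether such an exon is kept or skipped. Of 18 neuronal synapse and cytoskeleton genes, 9 were higher and 4 lower with both (median 0.22), led by SNAP25. The median was 0.04 for replicate 1 and 0.36 for replicate 2, and that of control siRNA to DNMT3B-L siRNA was 0.36 as well.

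Of 32 SR, TRA2 and hnRNP splicing regulators, 17 were lower and 5 higher with both (median -0.16). The share lower was 53.1%, against 37.5% of all genes. The median was -0.01 for replicate 1 and -0.30 for replicate 2, and that of control siRNA to DNMT3B-L siRNA was -0.16. HNRNPUL1 went the other way, at 532 and 710 CPM with PTBP1 siRNA and 753 CPM with control siRNA, against 278 CPM with DNMT3B-L siRNA. HNRNPA1 was at 968 and 893 CPM with PTBP1 siRNA, 1238 CPM with DNMT3B-L siRNA and 1096 CPM with control siRNA. Of 15 DNA methylation enzymes and readers, 7 were higher and 6 lower with both (median 0.09, with -0.06 for replicate 1 and 0.08 for replicate 2). TET3, which oxidises methylcytosine, was at 78.7 and 75.5 CPM with PTBP1 siRNA, 48.8 CPM with DNMT3B-L siRNA and 44.4 CPM with control siRNA. DNMT1, the maintenance methyltransferase, was at 458 and 392 CPM, 519 CPM and 500 CPM in that order. TET3 and DNMT1 thus differed in direction, and at neither did the PTBP1 libraries overlap the other pair. Both were named for their ratios, and how many of all genes have such an order was not counted.

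Most genes of the ribosomal, mitotic, replication and oxidative phosphorylation lists were lower with both PTBP1 siRNAs than with DNMT3B-L siRNA, by small amounts. Of 76 cytosolic ribosomal protein genes, 63 were lower and 5 higher with both PTBP1 siRNAs, a share of 82.9% lower against 37.5% of all genes, with a median of -0.15. RPS20 was the widest, at 113 CPM with replicate 1 and 489 CPM with replicate 2, against 847 CPM with DNMT3B-L siRNA and 716 CPM with control siRNA. Of 32 mitosis genes, 25 were lower and 3 higher with both (78.1% lower, median -0.23). CCNB1, the cyclin of mitotic entry, was at 244 and 246 CPM with PTBP1 siRNA and 236 CPM with control siRNA, against 388 CPM with DNMT3B-L siRNA. AURKA, a spindle kinase, was at 157 and 201 CPM, 169 CPM and 290 CPM in that order. Of 38 DNA replication genes, 23 were lower and 4 higher with both (60.5% lower), and RRM2 was past 2-fold. The median was -0.17, with -0.06 for replicate 1 and -0.29 for replicate 2. PCNA, the sliding clamp, was at 119 and 117 CPM with PTBP1 siRNA, 124 CPM with control siRNA and 179 CPM with DNMT3B-L siRNA. Of 47 nuclear genes of oxidative phosphorylation, 32 were lower and 4 higher with both (68.1% lower, median -0.19). In the same 4 lists the median of control siRNA to DNMT3B-L siRNA was -0.15, -0.28, -0.33 and -0.36, so control siRNA was below DNMT3B-L siRNA as the PTBP1 libraries were. No member of these lists passed the limma threshold.

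**Figure D4:**
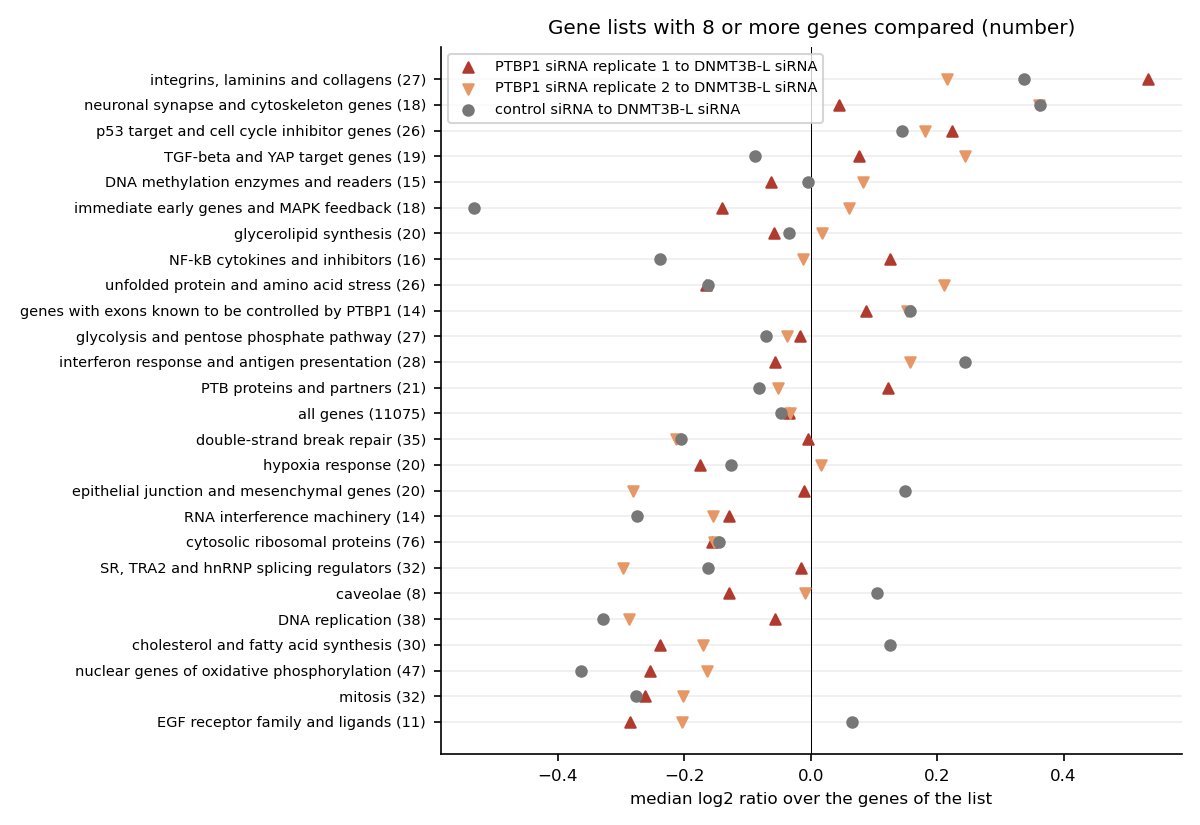
Median log2 ratio to DNMT3B-L siRNA over the genes of each list with at least 8 genes compared, for each PTBP1 siRNA library and for control siRNA, ordered by the mean of the PTBP1 ratios. Integrins, laminins and collagens lie at the top, and mitosis and EGF receptor genes at the bottom. For cholesterol and fatty acid synthesis the control circle lies on the other side of 0 from both PTBP1 triangles. The EGF receptor, caveolae, epithelial junction and TGF-beta lists show this too.

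Adhesion and lipid genes differed in where control siRNA lay. Of 27 integrins, laminins and collagens, 14 were higher and 3 lower with both PTBP1 siRNAs (51.9% higher, against 29.9% of all genes). The median was 0.34, and 0.34 for control siRNA to DNMT3B-L siRNA. At least 1.5-fold higher with both were 6 of the 27, against 2.87% of all genes, among them LAMB3, a laminin chain, at 536 and 570 CPM with PTBP1 siRNA, 319 CPM with DNMT3B-L siRNA and 472 CPM with control siRNA. Replicate 1 had the larger median in this list, at 0.53 against 0.22 for replicate 2. Of 30 genes of cholesterol and fatty acid synthesis, 16 were lower and 6 higher with both (53.3% lower, against 37.5% of all genes). Their median was -0.19, whereas that of control siRNA to DNMT3B-L siRNA was 0.13. Control siRNA also lay on the other side of 0 from both PTBP1 medians in other lists. These were the EGF receptor, caveolae, volume-regulated anion channel, epithelial junction and TGF-beta lists. FDPS, a farnesyl diphosphate synthase, was at 54.7 and 62.2 CPM with PTBP1 siRNA, 91.8 CPM with DNMT3B-L siRNA and 86.8 CPM with control siRNA. STARD4, a sterol carrier, was at 12.8 and 14.8 CPM, 24.2 CPM and 24.0 CPM in that order. At FDPS and STARD4 the PTBP1 libraries were below both others, an order that was not counted over all genes. FADS1, a fatty acid desaturase, was at 281 and 256 CPM with PTBP1 siRNA, 176 CPM with DNMT3B-L siRNA and 345 CPM with control siRNA, so DNMT3B-L siRNA was the lowest. Of 20 glycerolipid synthesis genes, 7 were higher and 8 lower with both (median 0.06), GPAT3 leading.

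Of 11 genes of the EGF receptor family and its ligands, 7 were lower and 2 higher with both (median -0.25). The share lower was 63.6%, against 37.5% of all genes. HBEGF was higher, as given above, whereas ERBB3, a receptor of the family, was at 16.8 and 21.8 CPM with PTBP1 siRNA, 38.6 CPM with DNMT3B-L siRNA and 30.4 CPM with control siRNA. AREG, another ligand, was at 5.27 and 6.48 CPM with PTBP1 siRNA, between control siRNA (2.93 CPM) and DNMT3B-L siRNA (9.45 CPM). Of 8 caveolae genes, 4 were lower and 4 higher with both (median -0.17, with -0.13 for replicate 1 and -0.01 for replicate 2). PTRF, or cavin 1, was at 1099 and 1009 CPM with PTBP1 siRNA, 1484 CPM with DNMT3B-L siRNA and 1267 CPM with control siRNA, a smaller difference than at CAV1. Of 4 subunits of the volume-regulated anion channel, LRRC8A, LRRC8B and LRRC8C were lower with both and LRRC8D was higher with both (median -0.76). LRRC8B was at 4.82 and 5.09 CPM with PTBP1 siRNA, 11.0 CPM with DNMT3B-L siRNA and 6.62 CPM with control siRNA.

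Among stress, signal and checkpoint lists the medians were small. Of 26 p53 target and cell cycle inhibitor genes, 12 were higher and 5 lower with both (median 0.16). The share higher was 46.2%, against 29.9% of all genes. CDKN1B, an inhibitor of cyclin-dependent kinases, was at 74.3 and 88.0 CPM with PTBP1 siRNA, 48.5 CPM with DNMT3B-L siRNA and 55.6 CPM with control siRNA. MDM4, an inhibitor of p53, was at 47.3 and 45.7 CPM, 26.7 CPM and 33.5 CPM in that order. Of 35 double-strand break repair genes, 15 were lower (42.9%, against 37.5% of all genes) and 5 higher with both (median -0.11). The median was -0.0045 for replicate 1 and -0.21 for replicate 2, and that of control siRNA to DNMT3B-L siRNA was -0.20. NBN, of the complex that senses broken ends, was at 50.5 and 43.1 CPM with PTBP1 siRNA, 83.0 CPM with DNMT3B-L siRNA and 84.3 CPM with control siRNA. At CDKN1B, MDM4 and NBN the PTBP1 libraries did not overlap the other pair. They too were named for their ratios, and such an order was not counted over all genes. Of 19 TGF-beta and YAP target genes, 9 were higher and 4 lower with both (median 0.15, with 0.08 for replicate 1 and 0.24 for replicate 2). Of 16 NF-kB genes, 8 were higher and 6 lower (median 0.06, with 0.13 for replicate 1 and -0.01 for replicate 2), and CCL2, a chemokine, was at 11.1 and 13.3 CPM with PTBP1 siRNA, 5.51 CPM with DNMT3B-L siRNA and 12.8 CPM with control siRNA. Of 14 genes of the RNA interference machinery, 4 were higher and 8 lower with both (median -0.14). TNRC6B and TNRC6A, scaffolds of the silencing complex, differed in direction. TNRC6B was at 65.1 and 101 CPM with PTBP1 siRNA, 33.9 CPM with DNMT3B-L siRNA and 67.9 CPM with control siRNA, and TNRC6A at 55.0 and 51.8 CPM, 89.8 CPM and 57.5 CPM in that order.

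The remaining lists gave no median beyond 0.12 in size, apart from the cancer-testis genes. Of 28 genes of the interferon response and antigen presentation, 9 were higher and 6 lower with both (median -0.02, above 0 with TMM factors and quantile normalization, and -0.06 and 0.16 for the PTBP1 siRNAs in turn). Of 18 immediate early genes, 3 were higher and 3 lower (median 0.08, with -0.14 and 0.06 in turn). Of 27 glycolysis and pentose phosphate genes, 7 were higher and 9 lower (median -0.01, above 0 with the same scalings). Of 20 hypoxia genes, 6 were higher and 7 lower (median -0.11, with -0.18 and 0.02 in turn). Of 26 genes of unfolded protein and amino acid stress, 8 were higher and 7 lower (median 0.05, with -0.17 and 0.21 in turn). Only 3 of 29 cancer-testis genes were compared, 2 higher and 1 lower with both (median 0.32).

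To see what the members share in sequence, the longest annotated 3′ UTR of each gene was read for words of 7 bases, on the transcript's own strand. A 3′ UTR of at least 50 bases was found for 10518 of the 11075 genes, and 14741 words stood in at least 200 of them. Each word was related across genes to each log2 ratio with adjustment for length and GC content. The words are chosen from the same ratios, genes are not independent replicates, and no test is given. For both PTBP1 siRNAs the word most tied to higher ratios was AACAACA, which 1651 genes (15.7%) held. It was also the leading word for control siRNA to DNMT3B-L siRNA, a ratio that shares the DNMT3B-L siRNA library. The adjusted difference between genes with and without it was 0.17 log2 units for either PTBP1 siRNA and 0.16 for control siRNA.

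The word was picked from the ratios that also chose the members, so its shares among them describe the members and support nothing. Of the 57 higher genes with a 3′ UTR, 26 (45.6%) held AACAACA, and of the 31 lower genes 2 (6.45%) did. The median 3′ UTR was 1963 bases long in the higher genes, 1209 bases in the lower and 1732 bases over all genes. Where control siRNA lay nearer to the PTBP1 libraries, 23 of 48 higher genes held the word (47.9%), and where it lay nearer to DNMT3B-L siRNA 3 of 9 did, PTBP2, SNAP25 and IGF2BP1. Of the higher genes that held the word, the 6 with the largest smaller ratios are shown by their first site, with the word in capitals, so that its surroundings can be compared. Other genes with ratios as large, such as VTN and HBEGF, did not hold it:
PTBP2: ttgctttgaaAACAACAttggcctttt
GALNT1: gaatcatgaaAACAACAtttttacaac
SNAP25: tttgctgaatAACAACAatttaggaat
ABCC3: cagtagacagAACAACActtccctgag
CFL1: tattttttttAACAACAtccccattcc
MYBL2: tcctggtgctAACAACAaagttccact

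In GRCh38 with GENCODE v29 the words lie in 3′ UTRs at chr1:96813971-96813977 (PTBP2, plus strand), chr18:35710252-35710258 (GALNT1, plus), chr20:10306486-10306492 (SNAP25, plus), chr17:50676039-50676045 (ABCC3, plus), chr11:65855035-65855041 (CFL1, minus) and chr20:43716287-43716293 (MYBL2, plus). SNAP25 held 6 copies of the word in 1221 bases and GALNT1 held 2 in 2064 bases, and the others held 1. The longest annotated 3′ UTR need not be the form that DU145 cells make, above all for PTBP2, whose longest form has 10333 bases.

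The words most tied to lower ratios differed between the PTBP1 siRNAs. For replicate 1 it was CTGCACA, held by 1904 genes (18.1%), with an adjusted difference of -0.24 log2 units, against -0.04 for replicate 2 and -0.01 for control siRNA. For replicate 2 it was AGATCAA, held by 1324 genes (12.6%), with an adjusted difference of -0.20, against 0.00 for replicate 1 and -0.01 for control siRNA. The difference with each of these words was seen in the ratio of a single PTBP1 siRNA library, whereas that with AACAACA was of like size in all 3 ratios, which share the DNMT3B-L siRNA library. These words too were picked from the ratios, and their counts among the members are a description. Of the 31 lower genes with a 3′ UTR, 8 held CTGCACA (25.8%, against 18.1% of all genes) and 5 held AGATCAA (16.1%, against 12.6%). None held both, against 3.63% of all genes, and 18 (58.1%) held neither, against 72.9% of all genes with neither. Of the 8 with CTGCACA, 7 were among the genes in which control siRNA lay nearer to DNMT3B-L siRNA, a group that made up 17 of the 31. The 7 were CAV1, SMYD2, RNF6, ERLIN1, WBP11, NKD1 and SBK1, and the other was BSPRY. AGATCAA stood in LRRC8A, TRIM4, PRSS16, DENND1C and SLC25A4. For each word, the 3 holders with the lowest ratios are shown in the same way, while KIAA0040, TMEM64 and EPCAM, with ratios as low, held neither:
BSPRY: ctgacataaaCTGCACAcctggggtga
CAV1: ggttacaagcCTGCACAataaaaatgt
SMYD2: cacttaaacaCTGCACAtgccgtactt
PRSS16: tctttcctaaAGATCAAttattttcag
SLC25A4: catttttaaaAGATCAAaaatgcatat
DENND1C: agggcttctcAGATCAAttcgagcagg

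These words lie in GRCh38 at chr9:113371125-113371131 (BSPRY, plus strand), chr7:116561151-116561157 (CAV1, plus), chr1:214336920-214336926 (SMYD2, plus), chr6:27256415-27256421 (PRSS16, plus), chr4:185147321-185147327 (SLC25A4, plus) and chr19:6471443-6471449 (DENND1C, minus), all in 3′ UTRs. The genes shown were lower with both PTBP1 siRNAs, although each word went with 1 of them over all genes. A match in these letters is a description, and whether any of the 3 words matches the seed of an siRNA was not tested. PTBP2 held all 3 words, and its level was high with both PTBP1 siRNAs.

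**Figure D5:**
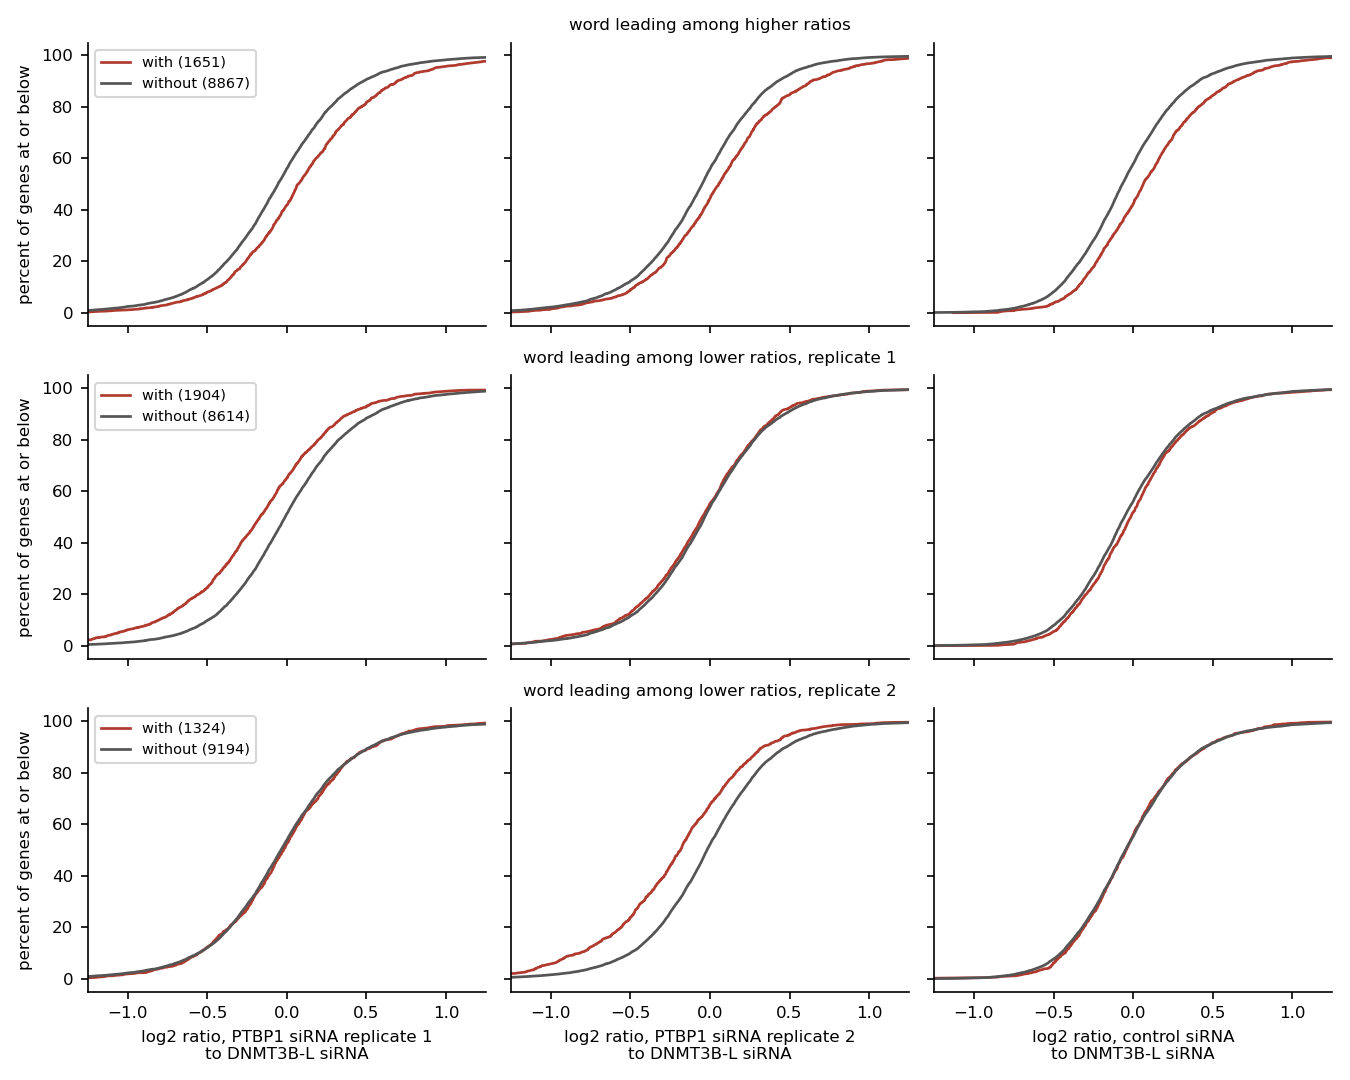
Percent of genes at or below each log2 ratio to DNMT3B-L siRNA, for genes with and without a word in the longest 3′ UTR, with 1 row per leading word and 1 column per library. Genes with the word of the higher ratios (1651) are shifted to the right in all 3 columns, whereas those of the lower words (1904 and 1324) are shifted to the left in the column of replicate 1 or of replicate 2 only.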

How the data were processed

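RNA-seq was done on total RNA of DU145 cells after siRNA transfection, with 100-bp paired-end reads on HiSeq 2500, and HISAT2 2.1.0, HTSeq 0.6.1, bcl2fastq 2.19.1 and the builds GRCh37 and hg19 stand in the submitters' processing notes. Gene values in CPM were deposited by the authors, in a separate table for each library. The sources used here do not give the authors' rule for keeping genes or their use of strand in counting, so overlapping genes are uncertain. The CPM were whole multiples of 1 read pair for 99.0% to 99.2% of values (tolerance 0.001) and at 0.5 of a read pair for the rest, none of them in the 11075 genes compared. Recovered totals were 22511596, 24088975, 23163964 and 22332245 read pairs for control, PTBP1 replicates 1 and 2 and DNMT3B-L siRNA. Genes missing from a table reached at most 4.70 CPM where listed and were left out. Gene names are those of the tables, and 98.9% of identifiers matched a table of current symbols.

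The test was limma 3.58.1 with trend (R 4.3.3) on log2(CPM + 1) of the 3 libraries, with 1 residual and 9.89 prior degrees of freedom and Benjamini-Hochberg adjusted p under 0.05. The fit was tested on simulated read pairs. As alternatives, the recovered read pairs were tested with edgeR 4.0.16 and with DESeq2 1.42.0, beside other filters, pseudocounts, scalings and folds, leaving out either PTBP1 library, and a fit of all 4 libraries. The genes named were PTBP1, PTBP2, DNMT3B, those past the threshold, the 12 highest and 12 lowest by the smaller ratio of both PTBP1 siRNAs, and up to 4 members of each of 27 lists, and the text gives further members of the 2-fold groups. A few of the genes that this rule or the marker lists cover are left out of the text. The 2-fold members and the lists were chosen with earlier results of these data known, and the words and the place of the control library were added after the data were seen. 3′ UTRs were read from GENCODE v29 (GRCh38), another build than the tables', in Python 3.11.15.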

Additional observations from a re-analysis of the deposited data

How the results depend on the processing

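PTBP2 was the 1 gene past the threshold with limma under either pseudocount, TMM factors, a looser filter (1 CPM or more in any library), all 4 libraries in 1 fit, and in edgeR. Limma called 0 genes without a filter (923 at an unadjusted p under 0.05) and 0 after quantile normalization (463), and DESeq2 called 19 (399), with 3006 adjusted p-values not given. The 58 higher and 33 lower genes became 24 and 15 with a pseudocount of 5, and 318 and 273 at 1.5-fold. The lower genes became 50 both without a filter and with the looser filter. Without replicate 1 or 2 the counts were 136 to 234 higher and 223 to 247 lower genes, with no test. The share of higher genes holding AACAACA was 31.4% to 41.4% on leaving out either PTBP1 library and between 38.5% and 50% under the other alternatives. All 120 named genes kept their direction under the other filters, pseudocounts, scalings and tools and in the fit of all 4 libraries. Leaving out either PTBP1 library could not turn it, since both ratios of a named gene had the same sign by choice. Of 27 lists, 16 had a median below 0, and 14 did with TMM factors or quantile normalization, 15 to 19 on leaving out either PTBP1 library. No paired analysis was possible, since the numbers 1 and 2 name different PTBP1 siRNAs and DNMT3B-L siRNA had 1 library. The alternatives for the AACAACA share were chosen after the data were seen. The single DNMT3B-L siRNA library enters every ratio, and its error could not be measured.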
